A study of Mus musculus with 38 samples.

Results

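Troponin and the myosin light chains exist in slow and fast forms, and the clusters of transcription start sites at the genes of both forms are described here in mouse soleus muscle before, during and after fasting-induced torpor. The genes were Tnni1, Tnnt1, Tnnc1, Myl2 and Myl3, which encode the slow forms, and Tnni2, Tnnt3, Tnnc2, Myl1 and Mylpf, which encode the fast forms. A cluster was taken for a gene when its highest peak was no more than 500 bp from an annotated 5′ end of that gene on the same strand. This rule found 29 of the 10819 clusters of the table, and all 10 genes had at least 1 cluster, so that 0 genes were absent. The assay was nAnT-iCAGE, a form of cap analysis of gene expression without amplification, in which each sequenced tag marks the base where an RNA started. Levels are given as the deposited tags per 1000000 tags (TPM), and a level does not depend on the length of the transcript. Levels of a gene's strongest promoter differed by up to 4.44-fold between the experiments, so that the order of the genes by level is given for each experiment apart.

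All 38 libraries came from adult male C57BL/6J mice, with 1 library per mouse, made from the lateral or both soleus muscles. In experiment #1, 4 Pre mice were fed ad libitum and sampled on day 1, 8 Mid mice had lost their food and were sampled on day 2, when torpor occurs, and 4 Post mice were sampled on day 3 after the food was returned. Torpor was prevented in the other 3 groups of day 2. The 4 HiT mice fasted at a high ambient temperature, the 4 Fed mice kept their food at a low ambient temperature, and the 4 Dep mice fasted at the low temperature while touch kept them out of torpor. The labels conflict on whether HiT and Fed mice had food, and the study's own methods were followed for both. Experiment #2 was an independent set of 2 Pre, 5 Mid and 3 Post mice. The mice, the run and the sequencing platform all changed between the experiments. The column headers name BWA in experiment #1 only, so the mapping may differ as well, and these cannot be told apart.

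In the sarcomere, troponin sits on the thin filament, where troponin C binds calcium, troponin I blocks the actin sites and troponin T ties the complex to tropomyosin. The myosin light chains wrap the neck of the myosin head on the thick filament, the essential chains next to the motor and the regulatory chains beside the rod, where their phosphorylation tunes force. A slow fiber uses Tnni1, Tnnt1 and Tnnc1 with Myl2 and Myl3, a fast fiber uses Tnni2, Tnnt3 and Tnnc2 with Myl1 and Mylpf, and the soleus is a postural muscle that holds many slow fibers beside fast oxidative ones. Tnnc1, Myl2 and Myl3 are also the forms of the heart.

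Tags in clusters numbered 18257657 to 39176649 per library in experiment #1 and 9359994 to 20914855 in experiment #2. All 6 of the listed soleus fiber markers had a cluster, and the cardiac markers Tnni3 and Myl7 had none, while Tnnt2 and Myh6 summed to 11.4 to 17.4 TPM in experiment #1, so that the heart forms among the genes were measured in muscle with few tags of cardiac markers. The library HiT 4 stood apart. Its 10 highest clusters took 40.3% of its tags in clusters, against a lowest share of 15.1% in experiment #1. Its highest cluster alone took 18%, and its TMM factor was 0.679, the lowest of the 28. All 10 main clusters had their lowest HiT value in TPM in HiT 4. The tests use TMM-scaled counts, and those between HiT and Mid are given with and without HiT 4 for the main clusters called and for the further Tnni2 and Myl1 promoters, and with it for all others. In a whole muscle, fewer fibers of a type and less RNA per fiber cannot be told apart.

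Each gene had 1 main cluster, the one with the highest mean in experiment #1, and 3 genes had another cluster above a mean of 100 TPM. In mm10 the main clusters of the troponin genes lay at chr1:135799083-135799663 (plus strand) for Tnni1, chr7:142441592-142442039 (plus) for Tnni2, chr7:4515872-4516137 (minus) for Tnnt1, chr7:142498630-142499197 (plus) for Tnnt3, chr14:31208072-31208431 (plus) for Tnnc1 and chr2:164779629-164780144 (minus) for Tnnc2. Those of the light chain genes lay at chr1:66934335-66935656 (minus) for Myl1, chr5:122100638-122101282 (plus) for Myl2, chr9:110763396-110763972 (plus) for Myl3 and chr7:127211489-127211771 (plus) for Mylpf. The highest peak of each lay at most 96 bases from an annotated 5′ end, and within 6 bases of it for 7 of the 10 genes. Myl1 is known for its pair of promoters, an upstream one for the long form MLC1f and an internal one for the short form MLC3f. Its main cluster was the internal one, and the upstream cluster, 9682 bases away at chr1:66944754-66945577, held 42.4% of its tags. Tnni2 had a further cluster 565 bases downstream of the main peak, at chr7:142442224-142443017, with 20.5% of its tags, and Tnnt1 had a further cluster 1360 bases downstream, at chr7:4514290-4514799, with 24.2% of its tags. The other 16 clusters were weaker than 100 TPM.

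The start sites themselves can be read for the 6 clusters whose surroundings lie in RefSeq promoter sequence of the matching build (GRCm38.p6). The base at which most RNAs start is usually the purine of a pyrimidine and purine pair, and over 4829 peaks of the table that pair was found 2 bases downstream of the deposited peak in 78.3%, against at most 22.5% at the other offsets, so the start was placed there. Each line gives 60 bases before the start and 5 from it on, 5′ to 3′. Capitals mark the last base before the start with the start itself and, where present, TATA between 40 and 20 bases upstream. The lines show where the letters TATA stand in that stretch at these 6 promoters, and the other promoters were not read. At Tnnc2 the pair was GG, not a pyrimidine and a purine, so its start is less sure.
Tnni1, chr1:135799381-135799445, plus strand: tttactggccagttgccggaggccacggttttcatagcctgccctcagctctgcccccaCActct
Tnnt1, chr7:4515971-4516035, minus strand: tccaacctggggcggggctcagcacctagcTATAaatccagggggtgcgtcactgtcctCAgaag
Tnnc1, chr14:31208257-31208321, plus strand: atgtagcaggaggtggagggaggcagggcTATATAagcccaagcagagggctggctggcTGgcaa
Tnnc2, chr2:164779729-164779793, minus strand: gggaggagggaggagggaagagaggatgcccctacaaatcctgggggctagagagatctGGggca
Myl3, chr9:110763618-110763682, plus strand: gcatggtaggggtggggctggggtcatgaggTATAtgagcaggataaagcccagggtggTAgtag
Myl1 upstream promoter, chr1:66945026-66945090, minus strand: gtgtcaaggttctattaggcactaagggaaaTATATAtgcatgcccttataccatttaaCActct

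TATA began 30 bases upstream of the start of Tnnt1, 31 of Tnnc1, 29 of Myl3 and 29 of the upstream Myl1 promoter, and did not occur in that stretch at Tnni1 and Tnnc2. Of 4780 promoters of the table read in the same way, 336 or 7.03% had it. In the full RefSeq windows of 300 bases, CATTCC, the core bound by TEAD factors in muscle genes, was found on either strand 2 times at Myl3, 1 time at Tnnc1 and 1 time at the upstream Myl1 promoter, and 14.7% of all 32851 promoter windows held it. The E-box CANNTG was found 4 times at Tnni1, and 72.3% of all windows held at least 1. The CArG box, the site of serum response factor, was found 1 time at Myl3, its pattern reading alike on either strand, and 1.63% of all windows held it. A match describes the letters and was not tested as a bound site.

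Levels at the main clusters spanned a wide range. Over the 28 libraries of experiment #1, Myl3, the slow essential light chain, had the highest level of the 10 genes, at 6396 ± 1222 TPM (mean ± SD, n = 28), and its main cluster ranked 12 among all clusters. Tnnc2, the fast calcium sensor, followed at 5543 ± 934 TPM. Then came Tnnt3 at 2696 ± 456 TPM and Myl1 at 2518 ± 480.3 TPM, both fast forms. Mylpf, the fast regulatory chain, had 1535 ± 327 TPM and Tnni2, the fast inhibitor, 1205 ± 215 TPM. The slow forms Myl2, Tnnt1 and Tnnc1 lay close together at 976 ± 276, 931 ± 177 and 890.4 ± 179 TPM. Tnni1, the slow inhibitor, was lowest at 314 ± 60.7 TPM. Of neighbours in this order, only Tnnc1 and Tnni1 had ranges that did not overlap, from 441 to 1230.0 TPM and from 166 to 440.1 TPM. Within a library the order was steadier. Myl3 was above Tnnc2 in 25 of 28 libraries, Tnnc2 above Tnnt3 in 28, Myl1 above Mylpf in 28 and Mylpf above Tnni2 in 27, whereas Myl2 was above Tnnt1 in only 16. In experiment #1 the fast form thus had a higher mean than the slow form for troponin C, I and T and for the regulatory chains, and the slow form had the higher mean for the essential chains. In experiment #2 the regulatory chains stood the other way, with Myl2 at 4827 TPM and Mylpf at 3385 TPM. Together the 10 genes made up 1.57 to 3.56% of the tags in clusters per library in experiment #1 (median 2.67%).

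**Figure D1:**
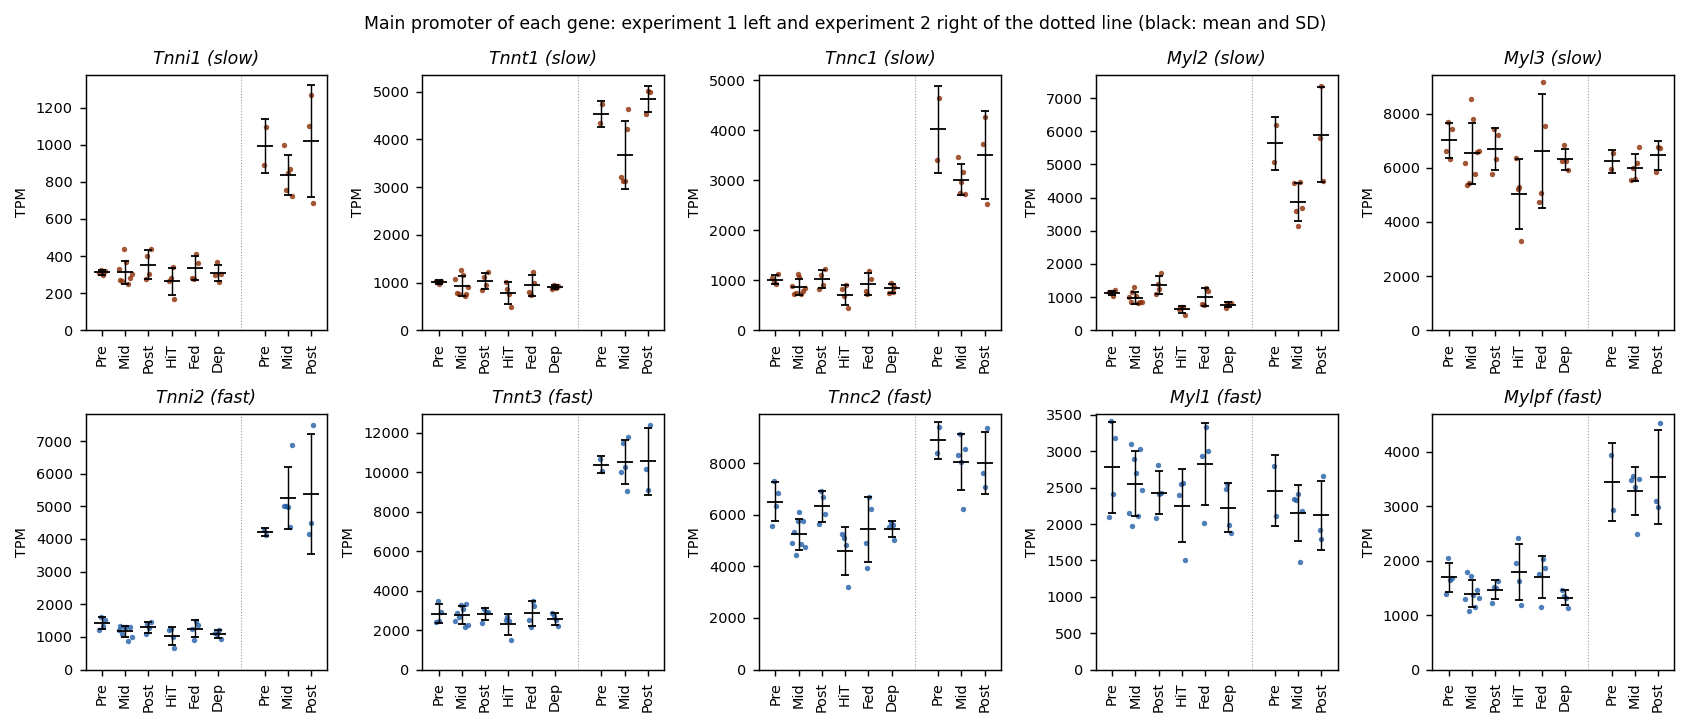
Level of the main cluster of each gene in TPM (y axis, from 0) in every library by group (x axis), with experiment #1 and experiment #2 side by side, points for libraries and bars for mean and SD. Myl2 lies at 468 to 709.8 TPM in the HiT libraries and at 808 to 1294 TPM in the Mid libraries of experiment #1, and 7 of the 10 genes lie higher in every library of experiment #2.

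The calls at these promoters are given beside the share of all clusters called in the same comparison. From Pre to Mid in experiment #1, 0 of the 29 clusters were called at an adjusted p below 0.05 by edgeR's quasi-likelihood F test, where 15.4% of all clusters rose and 14.8% fell. The intervals of ±2 SE of the 10 main clusters ran from -0.43 to 0.34 on the log2 scale, and 2 of the 10, Tnni2 and Tnnc2, had an unadjusted p below 0.05, the same 2 that DESeq2 called lower in Mid. Their median log2 change was -0.10, beside 0.01 for all clusters. From Mid to Post, 6 of the 29 clusters rose and 0 fell, where 17.5% of all clusters rose and 17.5% fell. Of the main clusters Myl2 and Tnnc2 rose, and the median of the 10 was 0.14 beside -0.01 for all clusters. From HiT to Mid, 5 of the 29 were higher in Mid and 3 lower, where 19.2% of all clusters were higher and 21.8% lower. The main clusters called were Myl2 and Myl3, higher in Mid, and Mylpf, lower in Mid. From Fed to Mid 0 of the 29 were called, where 16.6% of all clusters were higher in Mid and 18.6% lower, and from Mid to Dep 0 of the 29 were called, where only 1.16% of all clusters were higher in Dep and 0.872% lower. Among the main clusters the intervals reached from -0.40 to 0.34 in the former and from -0.47 to 0.36 in the latter, and 0 of the 10 had an unadjusted p below 0.05 or were called by DESeq2 in either. Comparisons with the same Mid libraries share them and are not independent.

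**Figure D2:**
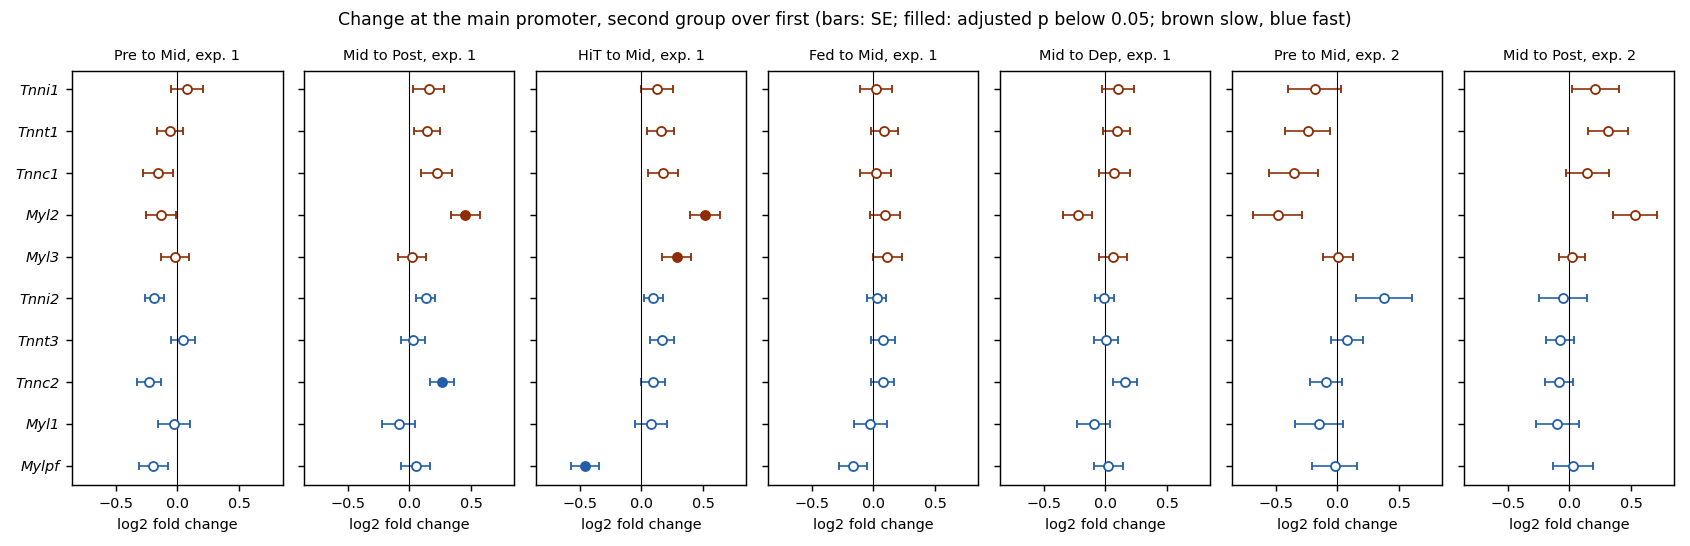
Log2 fold change (x axis) of the main cluster of each gene (y axis) in each of the 7 comparisons, as points with SE bars from edgeR and a line at no change. Most points lie within 0.3 of 0. In experiment #1 Myl2 stands out at 0.45 from Mid to Post and 0.51 from HiT to Mid, and Mylpf at -0.46 from HiT to Mid. In experiment #2 Myl2 lies at -0.48 from Pre to Mid and 0.53 from Mid to Post, neither called.

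Myl2 encodes the regulatory light chain of slow fibers. Its main cluster had 1139.8, 1141, 1033 and 1199 TPM in the 4 Pre libraries, 808 to 1294 TPM in the 8 Mid libraries (median 922) and 1095, 1380.2, 1245 and 1718 TPM in the 4 Post libraries. Post and Mid overlapped in TPM, with the highest Mid library above 2 of the 4 Post libraries. On TMM-scaled counts per 1000000 tags (CPM) they did not, since Post ran from 1309 to 1544 CPM and Mid from 848 to 1235. The log2 change from Mid to Post was 0.45 ± 0.12 (SE), a 1.37-fold rise (edgeR, adjusted p = 0.0039). From Pre to Mid it was -0.13 ± 0.12 (edgeR, adjusted p = 0.42), so that the rise after feeding had no called fall before it. The HiT libraries had 629.8, 706, 709.8 and 468 TPM, all below every Mid, Pre, Post and Fed library in TPM. On TMM-scaled counts the highest HiT library, at 846 CPM, was only just below the lowest Mid library at 848 CPM, and it was above 2 of the 4 Fed libraries, both at 814 CPM. Mid exceeded HiT by 0.51 ± 0.12 on the log2 scale (edgeR, adjusted p = 0.0015), and by 0.55 without HiT 4 (adjusted p = 0.0044). The Fed libraries had 786, 748, 1274 and 1187 TPM and the Dep libraries 669, 819.7, 755 and 829 TPM, and neither group differed from Mid past the threshold, with log2 changes of 0.09 ± 0.12 from Fed to Mid and -0.23 ± 0.12 from Mid to Dep. Of the 4 weaker Myl2 clusters, those with peaks at 122101781, 122102680 and 122103159 on chromosome 5 also rose from Mid to Post, by 0.56, 0.40 and 0.29 (edgeR, adjusted p = 0.012, 0.012 and 0.042).

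In experiment #2 the same Myl2 cluster had 5075 and 6200.3 TPM in Pre, 3686, 4434, 3589, 3157 and 4456 TPM in Mid and 5799.8, 7364 and 4508 TPM in Post. Every Pre and every Post library lay above every Mid library in TPM, while on TMM-scaled counts Post 7 at 4542 CPM lay below Mid 10 at 4671 CPM and Mid 13 at 5179 CPM. The changes were -0.48 ± 0.20 from Pre to Mid (edgeR, adjusted p = 0.165) and 0.53 ± 0.18 from Mid to Post (adjusted p = 0.065), neither past the threshold, while DESeq2 called the latter (0.54, adjusted p = 0.016). All 3 Post libraries were in lane 4 and 4 of the 5 Mid libraries in lane 3, so that lane and group can hardly be told apart in the change from Mid to Post. In lane 3 alone, where the Pre libraries were sequenced together with Mid 9 to 12, the change from Pre to Mid was -0.56 (edgeR, adjusted p = 0.074).

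Mylpf encodes the regulatory light chain of fast fibers and went the other way between HiT and Mid. It had 1955, 2406, 1630.0 and 1185 TPM in HiT and 1066 to 1782 TPM in Mid (median 1339.7). Only 2 of the 4 HiT libraries lay above every Mid library in TPM, while on TMM-scaled counts 3 were between 1748 and 1943 CPM and the fourth at 2488 CPM, against 1145 to 1868 CPM in Mid. The log2 change from HiT to Mid was -0.46 ± 0.12 (edgeR, adjusted p = 0.0025), and -0.46 without HiT 4 (adjusted p = 0.0070). Without the TMM scaling it was -0.37 and was not called (adjusted p = 0.113). The weaker Mylpf clusters with peaks at 127212891 and 127213164 on chromosome 7 were lower in Mid as well, by -0.39 and -0.86 (edgeR, adjusted p = 0.033 and 0.0010). In the other comparisons of experiment #1 Mylpf changed by -0.19 to 0.05 with an SE of 0.12 and was not called.

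Myl3 and Myl1 encode the essential light chains, slow and fast. Myl3 had 6371, 5217, 5293 and 3284 TPM in HiT and 5356 to 8549 TPM in Mid (median 6391). The groups overlapped, with 1 of the 4 HiT libraries above the lowest Mid library. Mid exceeded HiT by 0.28 ± 0.12 on the log2 scale with an adjusted p of 0.0499 by edgeR, at the edge of the threshold, and without HiT 4 the value was 0.27 and was not called (adjusted p = 0.118). Its other changes included -0.02 ± 0.11 from Pre to Mid, 0.02 ± 0.11 from Mid to Post and 0.11 ± 0.11 from Fed to Mid in experiment #1 and of 0.00 ± 0.12 and 0.02 ± 0.10 in experiment #2. The weak Myl3 clusters with peaks at 110766233 and 110766631 on chromosome 9 were higher in Mid than in HiT by 0.68 and 0.44 (edgeR, adjusted p = 0.0002 and 0.041). The internal Myl1 promoter changed by at most 0.09 in size in the 5 comparisons of experiment #1, with an SE of 0.13 in each, and was called in 0 of them. Its upstream promoter had 2257, 2542, 1765 and 1572 TPM in HiT and 1437 to 2250.4 TPM in Mid, and the change from HiT to Mid of -0.26 ± 0.11 missed the threshold (edgeR, adjusted p = 0.056), as did -0.20 without HiT 4 (adjusted p = 0.218).

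Tnnc1 and Tnnc2 encode the calcium-binding subunit, slow and fast. Tnnc2 had 5546, 7303, 6339 and 6863 TPM in Pre, 4422 to 6104 TPM in Mid (median 5115) and 5654, 6932, 6695 and 6025 TPM in Post. The Post libraries overlapped the upper part of the Mid range, and 2 of the 4 lay above all Mid libraries. The rise from Mid to Post was 0.26 ± 0.10 on the log2 scale (edgeR, adjusted p = 0.036), and the call was lost when any of 7 libraries was left out, Mid 1 to 4 or Post 1 to 3, with changes of 0.23 to 0.27. From Pre to Mid Tnnc2 changed by -0.23 ± 0.10 (edgeR, adjusted p = 0.072). In experiment #2 the changes were -0.09 ± 0.13 and -0.08 ± 0.11, so that a rise after feeding was not measured there. Tnnc1 changed by -0.16 ± 0.12 and 0.22 ± 0.12 in experiment #1 and by -0.35 ± 0.20 and 0.14 ± 0.17 in experiment #2, and was called in 0 of the 7 comparisons.

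Tnni1 and Tnni2 encode the inhibitory subunit. In experiment #1 Tnni1 had group means between 264 ± 72.8 TPM (HiT, n = 4) and 354 ± 79.0 TPM (Post, n = 4). It was called in 0 of the 7 comparisons, with changes between -0.18 and 0.21. The main Tnni2 promoter had group means there between 1030.0 ± 267 TPM (HiT) and 1416 ± 186 TPM (Pre). Its change from Pre to Mid was -0.19 ± 0.08 (edgeR, adjusted p = 0.063), the lowest adjusted p of the 10 genes in that comparison, and it was not called elsewhere either. In experiment #2 its mean went the other way, from 4213 TPM in Pre to 5254 TPM in Mid. This step differed between the experiments by 0.59 ± 0.18 on the log2 scale (edgeR, unadjusted p = 0.0035, adjusted p = 0.959). The downstream Tnni2 promoter was called between HiT and Mid. That cluster had 271, 218, 235 and 140.3 TPM in HiT and 267 to 421 TPM in Mid (median 334), with 1 HiT library just above the lowest Mid library. On TMM-scaled counts the groups did not overlap, at 216 to 281 CPM in HiT and 306 to 426 CPM in Mid. Mid exceeded HiT by 0.55 ± 0.10 on the log2 scale (edgeR, adjusted p = 0.00013), and by 0.53 without HiT 4 (adjusted p = 0.0008), while the main promoter of the same gene differed by 0.10 ± 0.08 (adjusted p = 0.34). The difference between the promoters was not tested. In the Fed group the downstream cluster had 401, 289, 463 and 436 TPM and did not differ from Mid past the threshold, at -0.12 ± 0.10.

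Tnnt1 and Tnnt3 encode the tropomyosin-binding subunit. Their main promoters were called in 0 of the 7 comparisons, with changes in experiment #1 of -0.06 ± 0.11 and 0.05 ± 0.10 from Pre to Mid and of 0.14 ± 0.11 and 0.02 ± 0.10 from Mid to Post. The downstream Tnnt1 promoter rose after feeding. It had 337, 325, 321 and 295 TPM in Pre, 236 to 411 TPM in Mid (median 281) and 312, 437, 363 and 429 TPM in Post. The TPM ranges overlapped, with Mid 1, Mid 4 and Mid 5 at 328.3, 411 and 339.9 TPM above Post 1 at 312 TPM. On TMM-scaled counts the groups did not overlap, with 260.3 to 375 CPM in Mid and 379 to 443 CPM in Post. The change was 0.36 ± 0.08 on the log2 scale (edgeR, adjusted p = 0.0015), against 0.14 ± 0.11 at the main promoter, and the difference between the promoters was not tested. In experiment #2 it had 293, 280.2, 295, 285 and 355 TPM in Mid and 373, 411 and 341 TPM in Post. There the change was 0.23 ± 0.12 and was not called (edgeR, adjusted p = 0.25).

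Experiment #2 gave calls at 1 of the 29 clusters from Pre to Mid, where 5.30% of all clusters rose and 4.44% fell, and at 0 of the 29 from Mid to Post, where 7.73% rose and 8.65% fell. The call was the weak Myl2 cluster with its peak at 122103159 on chromosome 5, which fell by 0.49 on the log2 scale (edgeR, adjusted p = 0.036). With 2 Pre and 3 Post libraries the intervals were wide, from -0.88 to 0.83 over the 10 main clusters from Pre to Mid and from -0.44 to 0.88 from Mid to Post. The interval of Myl2 from Mid to Post ran from 0.18 to 0.88 and held the 0.45 of experiment #1, and that of Tnnc2 ran from -0.31 to 0.14, below the 0.26 of experiment #1. The 5 slow main clusters all had changes above 0 from Mid to Post in both experiments, of which Myl2 in experiment #1 was the only one called. The fast main clusters were above 0 in 4 of 5 cases in experiment #1 and in 1 of 5 in experiment #2. Of all clusters, 5201 of 10776 were above 0 in experiment #1 and 5209 of 10816 in experiment #2. Slow genes correlated within groups (r of 0.50 to 0.90 in experiment #1), so their signs are not independent. A test of the difference between the experiments called 0 clusters of the table for either step (edgeR, adjusted p below 0.05), while at an unadjusted p below 0.05 it gave 4.76% of clusters from Pre to Mid and 5.20% from Mid to Post. The members had 2 and 1 of 29 at that level, with lowest adjusted p of 0.959 and 0.859.

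Because slow and fast forms replace each other in the same position of the sarcomere, the log2 ratio of the slow to the fast gene, summed over their clusters, was taken within each library, as a description with no test. The ratio of the regulatory chains, Myl2 over Mylpf, was -1.37 ± 0.26 in HiT (SD, n = 4) and -0.43 ± 0.34 in Mid (n = 8). All HiT libraries, from -1.67 to -1.10, lay below all Mid libraries, from -1.0 to 0.15. Post was highest at -0.04 ± 0.14, and Pre, Fed and Dep had means of -0.49, -0.70 and -0.68. In experiment #2 the means were 0.75, 0.26 and 0.75 in Pre, Mid and Post. The ratio of the essential chains, Myl3 over Myl1, ranged from a mean of 0.23 in HiT to 0.79 in Dep. HiT reached up to 0.46 and overlapped Mid, which ran from 0.03 to 0.78, but lay below Post and Dep, whose lowest values were 0.65 and 0.60. The troponin ratios moved little across the 6 conditions of experiment #1. The group means ran from -2.49 to -2.19 for Tnni1 over Tnni2, from -1.17 to -0.97 for Tnnt1 over Tnnt3 and from -2.72 to -2.55 for Tnnc1 over Tnnc2. These spans of means were of the size of the SD between mice, which lay between 0.09 and 0.28 in the groups of 4. In experiment #2 all 3 troponin ratios had lower means in Mid. In Pre, Mid and Post these were -2.23, -2.74 and -2.50 for Tnni1 over Tnni2 and -1.08, -1.40 and -0.99 for Tnnt1 over Tnnt3. For Tnnc1 over Tnnc2 they were -1.16, -1.41 and -1.21. Only for Tnni1 over Tnni2 did Pre (-2.40 to -2.05) and Mid (-3.34 to -2.43) not overlap, with 2 Pre libraries.

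The balance between the promoters of a gene was described in the same way, after the values were seen. The upstream over the internal Myl1 promoter had a ratio of 0.918 ± 0.159 in HiT and 0.718 ± 0.0438 in Mid, and 3 of the 4 HiT libraries had more than 0.781, the highest Mid value. The downstream over the main Tnni2 promoter had a ratio of 0.211 ± 0.0279 in HiT, 0.288 ± 0.0219 in Mid and 0.319 ± 0.00586 in Fed, with no overlap between HiT (0.174 to 0.239) and Mid (0.251 to 0.322). For Tnnt1 the ratio was 0.374 ± 0.0188 in Post and 0.325 ± 0.0280 in Mid, and 1 Mid library at 0.383 lay within the Post range.

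**Figure D3:**
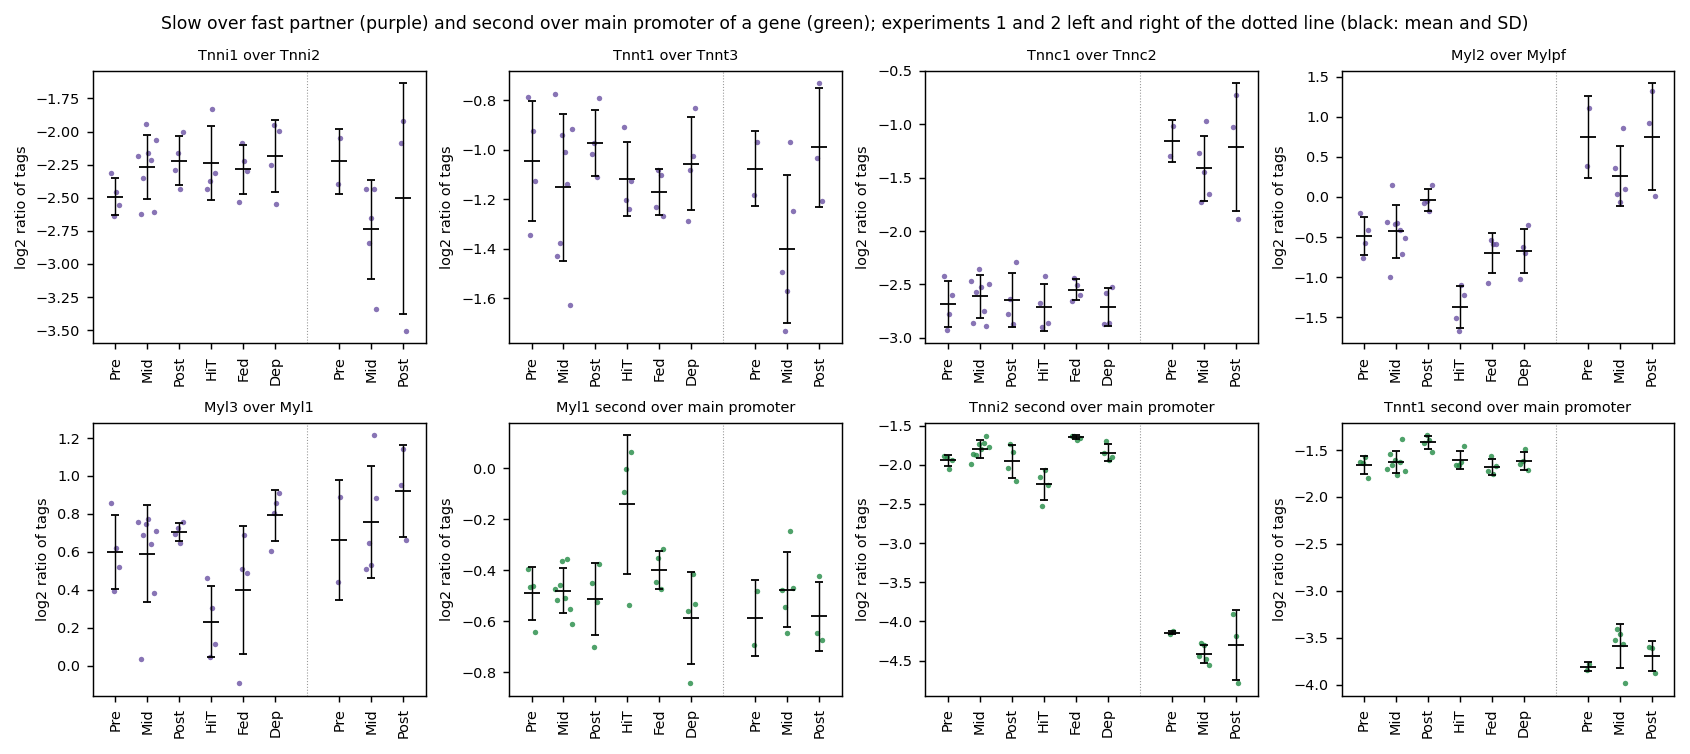
Log2 ratio (y axis) of the slow to the fast gene for 5 pairs and of the further to the main promoter for Myl1, Tnni2 and Tnnt1, in every library by group (x axis), with bars for mean and SD. The 4 HiT libraries lie lowest for Myl2 over Mylpf, from -1.67 to -1.10, and the Tnni2 and Tnnt1 promoter ratios lie lower in experiment #2.

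Of 5 listed markers of fast glycolytic muscle, which lies next to the soleus, 2 were called higher in Mid than in HiT and 3 were not called. All 5 genes had a cluster, and their overlapping summed level was 4795 to 8754 TPM in HiT (median 7230.4) and 5993 to 13075 TPM in Mid (median 9822). Myh4, the heavy chain of type IIB fibers, had a mean of 4.27 TPM in HiT and 309 TPM in Mid (log2 change 6.09, edgeR, adjusted p = 0.0019), and Pvalb, a calcium buffer of fast fibers, changed by 1.45 (adjusted p = 0.023). Actn3, Mybpc2 and Atp2a1 changed by 1.27, 1.18 and 0.29 (edgeR, adjusted p = 0.0797, 0.0706 and 0.0628). The fast Mylpf was lower in Mid than in HiT, the opposite direction to Myh4. The part of neighbouring muscle in the values of the light chain genes was not tested. Summed markers of tendon and adipocytes overlapped between HiT and Mid. Those of red blood cells overlapped too, at 1305 to 3177 TPM in HiT (median 2410) and 2369 to 4465 TPM in Mid (median 3730).

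In experiment #1 mice of a group differed from each other along the slow and fast forms. After removal of the group means, the log2 TMM-scaled CPM of slow genes correlated with each other over the 28 libraries of experiment #1, with Pearson's r of 0.50 to 0.90 in the 10 pairs (median 0.70). Fast genes did so with r of 0.54 to 0.79 in their 10 pairs (median 0.70). Between a slow and a fast gene r was lower, from -0.01 to 0.60 in 25 pairs (median 0.19). In the 10 libraries of experiment #2, r ran from -0.10 to 0.98 among slow genes (median 0.33) and from 0.58 to 0.95 among fast genes (median 0.73). Between a slow and a fast gene it ran there from -0.91 to 0.45 (median -0.69). The points share library depth and scaling, and these values are descriptions.

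**Figure D4:**
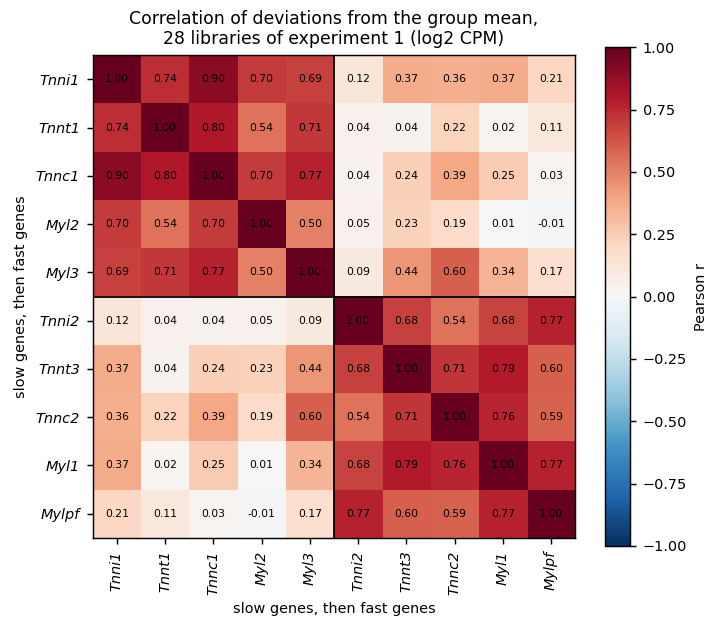
Pearson's r between the main clusters of the 10 genes (both axes, slow genes first), of log2 TMM-scaled CPM as deviations from the group mean over the 28 libraries of experiment #1, with r as color and number. Pairs within a fiber form have r of 0.50 or more, and pairs between the forms lie between -0.01 and 0.60.

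Outside the 10 genes, the annotated clusters that varied most like each of them were taken by r over the same 28 libraries. For Myl2 the nearest was Myh7, the slow myosin heavy chain (r = 0.87), followed by Commd1 (0.73) and Coq3 (0.70). Tnnc1 was nearest to Tpm3, the slow tropomyosin (0.91), with Myoz2, a Z-disc protein of slow fibers (0.83), and Mrps23 (0.82) next. Tnni1 had Cfl2, the muscle cofilin, and Myl12a (both 0.88) and then Tpm3 (0.83). Tnnt1 had Crnkl1 (0.80), Trmt112 (0.79) and Myl12a (0.72). Myl3 had Swi5 (0.91), Psmb1 (0.89) and Pla2g16 (0.87). Among the fast genes, Myl1 was nearest to Tpm1 (0.90), Eno3, the muscle enolase (0.89), and Gm2308 (0.89). Tnni2 was nearest to Eno3 and Gm2308 (both 0.71) and Pygm, the muscle glycogen phosphorylase (0.68). Tnnt3 had Ckm, the muscle creatine kinase (0.84), Eef1a2 (0.78) and Ak1 (0.75). Tnnc2 had Smim20 (0.86), Tmem242 (0.84) and Ak1 (0.83). Mylpf had Myoz3, the Z-disc protein of fast fibers (0.79), Tpi1 (0.77) and Aimp2 (0.77).

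Levels of 7 of the 10 main clusters differed far more between the experiments than between the conditions. Over the means of Pre, Mid and Post, Myl2 was 4.44-fold, Tnnt1 4.40-fold, Tnni2 3.81-fold, Tnnt3 3.74-fold, Tnnc1 3.64-fold, Tnni1 2.91-fold and Mylpf 2.25-fold higher in experiment #2, with every library of experiment #2 above every Pre, Mid and Post library of experiment #1. Tnnc2 was 1.38-fold higher, and Myl3 and Myl1 stood at 0.924 and 0.866 of their level in experiment #1, all with overlapping ranges. In all, 16 of the 29 clusters lay wholly above and 0 wholly below, where 12% of all clusters lay above and 8.63% below. Slow and fast genes were on both sides. The order of levels changed with it, to Tnnt3 at 10506 ± 1110 TPM (n = 10) first, then Tnnc2 at 8203 ± 1022 TPM and Myl3 at 6188 ± 486 TPM, with Tnni1 again lowest at 924 ± 189 TPM. The 10 genes made up 4.79 to 6.31% of the tags in clusters per library in experiment #2.

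Promoters of the same gene differed in this respect. The main Tnnt1 cluster was 4.40-fold higher in experiment #2 and its downstream cluster 0.998-fold, and the main Tnni2 cluster was 3.81-fold and its downstream cluster 0.717-fold. The ratio of the downstream to the main Tnni2 promoter therefore had group means of 0.260 to 0.319 outside HiT in experiment #1 and 0.047 to 0.0566 in experiment #2. The distance from the peak to the end of the first exon of the nearest annotated transcript was set beside this for the 13 clusters of at least 100 TPM. It was 45 to 62 bases for the 7 genes that were higher except Tnni2 with 76, and 116, 239 and 279 bases for the further Tnni2, Myl1 and Tnnt1 promoters and 223 for Myl3, which were not higher. Tnnc2 with 71 and the internal Myl1 promoter with 73 bases had fewer than Tnni2, yet stood at only 1.38-fold and 0.866-fold. Weaker clusters did not all follow, since the Myl3 cluster with its peak at 110768030 on chromosome 9 had 1148 bases and was 3.60-fold higher, and the Myl3 cluster at 110766631 and the Tnni2 clusters at 142443941 and 142444259 on chromosome 7 peaked beyond the end of that exon and were 2.80-fold, 3.31-fold and 6.49-fold higher. Over all clusters the median log2 ratio of experiment #2 to #1 was 0.85 for 174 clusters with 41 to 50 bases and 0.55 for 612 with 51 to 75, -0.78 for 93 with 21 to 30, and -0.02 for 964 with 76 to 100. The cause of the difference was not tested, and levels are compared between conditions only within an experiment.

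**Figure D5:**
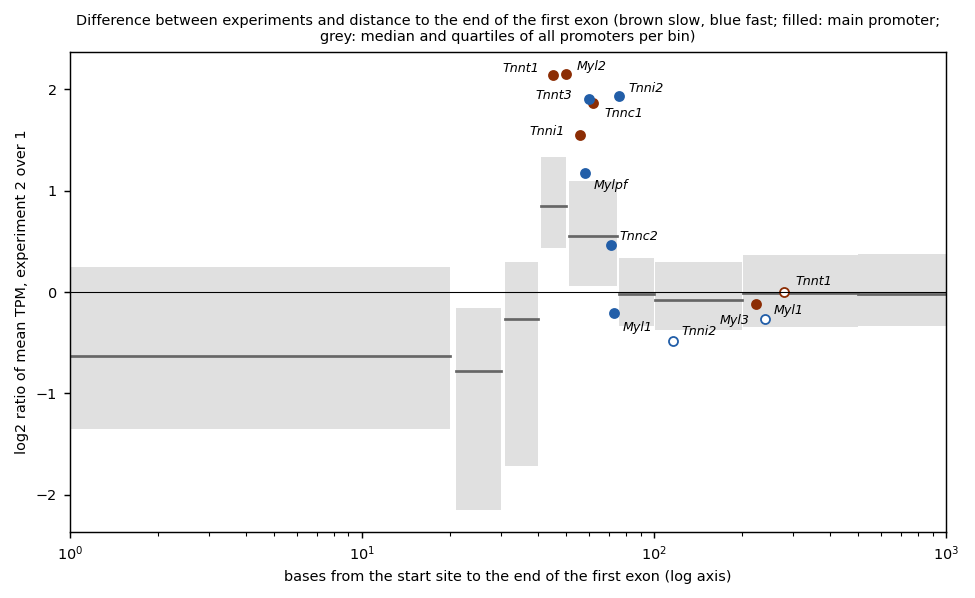
Log2 ratio of the mean level in experiment #2 to experiment #1 (y axis) against the bases from the start site to the end of the first exon (x axis), for the 13 clusters of at least 100 TPM as named points and for bins of all clusters as grey medians with quartiles. Main clusters with 45 to 62 bases are 2.25-fold to 4.44-fold higher in experiment #2, and the named clusters with 116 bases or more are not higher.

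Some promoters of the partners of these proteins were called as well. Of 10 thin filament partners (actins, tropomyosins, nebulin, tropomodulins and leiomodins), 2 rose and 2 fell from Pre to Mid, and 3 rose and 1 fell from Mid to Post, where the same 15.4, 14.8, 17.5 and 17.5% of all clusters did. Lmod2 and Lmod3, which nucleate actin filaments, went opposite ways. Lmod2 rose by 1.12 ± 0.13 and then fell by 1.20 on the log2 scale, and Lmod3 fell by 1.15 and then rose by 1.20 ± 0.13 (edgeR, adjusted p of 1.1e-06 or less in each). Experiment #2 gave the same directions, with 1.14 and -1.17 for Lmod2 and -1.27 and 1.03 for Lmod3, all called. From HiT to Mid 3 partners were higher and 2 lower, with the slow tropomyosin Tpm3 higher by 0.50 ± 0.12 (adjusted p = 0.0021) and the cardiac actin Actc1 lower (-1.58, adjusted p = 2.3e-05). From Fed to Mid 1 was higher and 2 lower, and from Mid to Dep 0 of 10 were called.

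Other troponin and light chain genes and their kinases made a list of 14, of which 8 had a cluster and Tnni3, Myl6b, Myl7, Myl10, Mylk and Mylk3 had none. Mylk2, the kinase that phosphorylates the regulatory light chain in skeletal muscle, rose from Pre to Mid by 0.57 ± 0.19 and fell from Mid to Post by 0.80 in experiment #1 (edgeR, adjusted p = 0.024 and 0.0021), and changed by 0.78 and -0.75 in experiment #2 (adjusted p = 0.032 and 0.012). Mylk4 was higher in Mid than in HiT by 1.01 ± 0.31 (adjusted p = 0.010). In this list 1 rose and 2 fell from Pre to Mid, 1 rose and 2 fell from Mid to Post, 2 were higher and 3 lower from HiT to Mid, 1 was higher and 1 lower from Fed to Mid, and 0 of 8 were called from Mid to Dep. The shares of all clusters higher and lower were 15.4 and 14.8%, 17.5 and 17.5%, 19.2 and 21.8%, 16.6 and 18.6%, and 1.16 and 0.872% in these 5 comparisons, also for the lists that follow.

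Of 9 further genes of the slow fiber programme, 7 had a cluster (Myh7b and Pln had none), and from HiT to Mid 3 were higher and 3 lower. Myh7 was higher in Mid by 0.35 ± 0.12, the slow calcium pump gene Atp2a2 by 0.70 ± 0.17 and Myoz2 by 0.54 ± 0.09 (edgeR, adjusted p = 0.021, 0.0018 and 3.2e-05), while Csrp3, Casq2 and Sln were lower by 0.74 or more in size. From Pre to Mid 1 rose and 1 fell, from Mid to Post 1 rose and 0 fell, from Fed to Mid 2 were higher and 0 lower, and from Mid to Dep 1 was higher and 0 lower. Of 10 genes of the fast fiber programme 2 were higher and 0 lower from HiT to Mid, 1 rose and 1 fell from Pre to Mid, 1 rose and 2 fell from Mid to Post, 0 were higher and 1 lower from Fed to Mid, and 0 were called from Mid to Dep. Of 11 regulators of fiber type 9 had a cluster (Eya1 and Tead4 had none), 3 rose and 3 fell from Pre to Mid, 3 rose and 3 fell from Mid to Post, 3 were higher and 1 lower from HiT to Mid, 2 were higher and 4 lower from Fed to Mid, and 0 were called from Mid to Dep. Tbx15, a T-box factor of fast fibers, was higher in Mid than in HiT by 0.69 ± 0.08 and Mef2c by 0.50 ± 0.08 (adjusted p = 9.6e-08 and 2.1e-05). Tead1, a factor of the CATTCC core, fell by 0.47 from Pre to Mid and rose by 0.37 ± 0.11 from Mid to Post (adjusted p = 0.0019 and 0.011).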

How the data were processed

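The members and gene lists were chosen with earlier results of these data known. The authors mapped CAGE reads to mm10 with BWA and HISAT2, clustered the 5′ ends with PromoterPipeline, and deposited raw tag counts per cluster and the same values as TPM, which per the file headers are scaled per 1000000 tags of the library, tags outside clusters included. Versions of these tools are not given in the sources used here. All value columns were used.

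Clusters were assigned by GENCODE vM21 5′ ends within 500 bp. Counts were tested with edgeR 4.0.16 in R 4.3.3 (TMM, quasi-likelihood F test, Benjamini-Hochberg adjustment over all clusters with any tag), with group as the only term. The 28 libraries of experiment #1 (10776 clusters) and the 10 of experiment #2 (10816) were fitted separately. The scripts were tested on simulated data. SE is the log2 fold change divided by the root of F. P-values measure the spread between mice. Named were all member genes and, per list and comparison, at most 4 genes with the lowest adjusted p. Exceptions were the slow fiber list from HiT to Mid, where every called gene was named, and the fast glycolytic markers, which were all named. Alternatives were DESeq2 1.42.0, the likelihood ratio test, other scalings and filters, other sets of libraries, sums per gene, the replicate number as a block, lane 3 alone, and each library left out. Printed sequences are from RefSeq.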

Additional observations from a re-analysis of the deposited data

Results flagged for a closer look

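A sample far from the others of its group was found in 6 of the 147 groups tested, where chance gives about 1 in 20. The internal Myl1 promoter had 1502 TPM in HiT 4, beside 2403 to 2561 TPM in the other HiT libraries. HiT 4 is the library with the lowest TMM factor. In experiment #2, Mid 13 had 1477 TPM at the internal Myl1 promoter (others 2177 to 2413 TPM), 2489 TPM at the main Mylpf cluster (others 3358 to 3552 TPM) and 355 TPM at the downstream Tnnt1 promoter (others 280.2 to 295 TPM). Mid 13 is the only Mid library of lane 4, and the part of the lane was not tested. Mid 9 had 6894 TPM at the main Tnni2 promoter, beside 4355 to 5023 TPM in the other Mid libraries of experiment #2. In Fed 1 the log2 ratio of Myl2 to Mylpf was -1.08, beside -0.59 to -0.54 in the other Fed libraries.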

How the results depend on the processing

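Of the values of single genes under the alternatives, 2135 kept their direction and side of the threshold, 22 gained a call, 33 lost it and 0 reversed. Myl2 kept its call from Mid to Post in 37 of 37 alternatives (0.39 to 0.52) and from HiT to Mid in 36 of 36 (0.44 to 0.63), Mylpf from HiT to Mid in 35 of 36 (-0.49 to -0.34), the downstream Tnni2 promoter in 35 of 35 and the downstream Tnnt1 promoter in 35 of 36. Tnnc2 kept its call from Mid to Post in 27 of 37 (0.14 to 0.36, adjusted p 0.0091 to 0.211) and Myl3 its call from HiT to Mid in 14 of 36 (0.18 to 0.37, adjusted p 0.019 to 0.345). Of the 10 main clusters, the number called from Pre to Mid in experiment #1 went from 0 to 2 with DESeq2 and with upper-quartile scaling, and to 1 with only the compared groups in the fit. From Mid to Post it went from 2 to 1 without TMM or with only the compared groups, and from HiT to Mid from 3 to 1 without TMM. In experiment #2 it was 1 from Mid to Post with DESeq2, the likelihood ratio test, no TMM or upper-quartile scaling (Myl2 in each). A fit of all 38 libraries gives 1 effect for both experiments together, with 1 main cluster called from Pre to Mid (Myl2) and 2 from Mid to Post (Myl2 and Tnnt1), and is no result of experiment #2 alone. The cause of these changes was not tested. Leaving out 1 library gave 0 to 2 calls from Pre to Mid (2 without Pre 1, 1 without Fed 2), 1 to 2 from Mid to Post, 2 to 5 from HiT to Mid (5 without HiT 3, with Tnni1 at 0.34 and Tnnc1 at 0.38), 0 from Fed to Mid and from Mid to Dep, and in experiment #2 0 from Pre to Mid and 0 to 1 from Mid to Post (Myl2, at 0.61 without Mid 13, where lane and group cannot be told apart, and 0.71 without Post 7).

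Of all clusters, without TMM 534 rose and 924 fell from Pre to Mid, 808 and 822 from Mid to Post, 1313 and 1010 from HiT to Mid, 509 and 1672 from Fed to Mid, and 7 and 2 from Mid to Dep, against 1659 and 1594, 1881 and 1890, 2070 and 2352, 1788 and 2009, and 125 and 94. The median of all clusters was then 0.11 from HiT to Mid and -0.12 from Fed to Mid, against 0.02 and 0.00. Upper-quartile scaling gave 1282 and 2308 from Pre to Mid and 2535 and 1471 from Mid to Post. From Mid to Dep there were 245 and 234 with DESeq2, 189 and 154 with the likelihood ratio test, 218 and 189 with the replicate block and 2 and 0 with only the compared groups.

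Same-numbered libraries of different groups had a mean correlation of deviations of 0.04 over 60 pairs, so the numbers do not pair the mice. With the replicate block 2 main clusters were called from HiT to Mid, Myl3 being lost at 0.18, and it changed no other call of a main cluster. Depth limits the clusters of a few TPM, and the 2 Pre and 3 Post libraries limit experiment #2.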
